A study of Mus musculus with 9 samples.

Results

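Expression of 10 transcription factors that act in haematopoietic and early lymphoid progenitors was followed in cultured mouse pre-B cells, the stage of B cell development at which light-chain genes are rearranged. The factors were Lef1, Tcf7, Sox4, Myb, Gfi1, Runx1, Runx2, Runx3, Erg and Meis1, and a probe set belonged to them when the platform annotation gave it exactly 1 of these symbols. Of the 10 genes, 8 had such a probe set, with 27 probe sets of 45101 in all. The expression of Tcf7 and Runx2 was not analysed here. Gene expression was measured as total RNA on 9 Affymetrix arrays, 3 per group. All cells, those given IRF4 included, carried null alleles of IRF4 and IRF8 (genotype IRF4,8 -/-), transcription factors of the interferon regulatory family. The groups were cells in low IL-7 (0.25 ng), cells in high IL-7 (5 ng) to which IRF4 had been reintroduced, and cells in high IL-7 (5 ng) with neither change. The labels disagree on the volume behind these amounts, so no concentration is stated. IL-7 is the cytokine that drives survival and division of B cell precursors. The labels name no promoter, vector, clone, age or strain, and no group handled like the IRF4 cells without IRF4, so IRF4 and the means of putting it back cannot be told apart.

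Lef1, Tcf7 and Sox4 carry an HMG box, a domain that bends DNA. LEF1 and TCF7 recruit either beta-catenin, the effector of Wnt signalling, or Groucho/TLE corepressors, and LEF1 and SOX4 are required for normal expansion and survival of pro-B cells in mice. MYB is needed for the passage through the pro-B stage. GFI1 is a zinc finger repressor that restrains Il7r and Id2 in lymphoid precursors. The RUNX proteins bind DNA together with CBFB, and RUNX1 is required for early B cell development. ERG, an ETS factor, and MEIS1, a homeobox factor that works with PBX and HOX proteins, are best known for maintaining haematopoietic stem cells.

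Array medians lay between 139.7 and 151.3 intensity units. High IL-7 replicate 1 and IRF4 replicate 3 stood apart in the 18S control signal, at 6.53 and 6.41 on the log2 scale, with the other 7 arrays between 7.70 and 8.49. The same arrays also had the smallest Actb 3′ to 5′ differences, 0.28 and 0.33 on the log2 scale, against 0.46 to 0.61 in the others. Where leaving out both changed a call or the sign of a factor's probe set, or moved a change printed for it by over 1.5 times, the value without them is given too. Of the 2 Irf4 probe sets, the dimmer read 1088, 1379 and 2543 with IRF4 and 257 to 316 in low IL-7, against 202 to 381 in high IL-7, and rose by 2.45 with IRF4 (limma adjusted p = 0.00109). The brighter read 3709, 3702 and 4256 with IRF4 and 7161 to 7926 in low IL-7, against 4719 to 5791 in high IL-7. It fell by 0.40 with IRF4 (adjusted p = 0.0366) and was higher by 0.57 in low IL-7 (adjusted p = 0.000443), so it was bright in cells labelled null for the gene. Of 7 defining pre-B cell genes, Vpreb1 lay between 9508 and 13993 and Ebf1 between 3802 and 6273 in every array. Pax5 was dimmer, at 319 to 616. Of these 7 genes, 4 rose in low IL-7 and 0 fell, and 1 rose with IRF4. The summed intensity of 9 stromal and osteoblast markers ranged from 1879 to 3120 in low IL-7 and from 2384 to 9745 with IRF4, against 3865 to 13144 in high IL-7, and 3 of the 7 tested fell in low IL-7. That of 9 T cell markers was 2056 to 2307, 1835 to 2063 and, in high IL-7, 2049 to 2368, with 1 of 5 tested (Thy1) lower in low IL-7. Among these 9, Thy1 was the brightest, at 726 to 1260, and Cd3g the dimmest, at 10.6 to 24.0. That of 8 myeloid markers was 1157 to 1208, 973 to 1134 and, in high IL-7, 989 to 1013. Of the 5 tested, 1 was higher in low IL-7, which was Itgam (2.01, adjusted p = 1.00e-05). Itgam was dim, at 37.5 to 259 over all arrays, and was bright enough to be tested only through its low IL-7 arrays. That of 7 erythroid and megakaryocyte markers was 1060.3 to 1137, 1070.2 to 1181 and, in high IL-7, 1026 to 1187, with 1 of 3 tested lower in low IL-7. That of 6 endothelial markers was 462 to 481, 422 to 464 and, in high IL-7, 413 to 435, and the 1 tested, Kdr, was higher in low IL-7. Whether these cell types or the 18S signal had a part in the results below was not tested. In bulk RNA, fewer cells that express a gene and less of its RNA per cell cannot be told apart. Separate cultures or animals are not stated for the replicates, so p-values reflect a spread between arrays that may be technical.

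Because Lef1, Sox4 and Myb rose together in low IL-7 and Runx3 was the factor that fell, the 250 bases before the most upstream RefSeq start of these 4 genes (build GRCm38.p6) are shown, written 5′ to 3′ along the gene's strand. Capitals mark GC boxes (GGGCGG, either strand) in Lef1 and Myb, CCAAT boxes (CCAAT, either strand) in Sox4, and RUNX motifs (TGTGGT, either strand) in Runx3. The windows are Lef1 at chr3:131110047-131110296 on the plus strand, Sox4 at chr13:28953700-28953949 on the minus strand, Myb at chr10:21160985-21161234 on the minus strand and Runx3 at chr4:135120395-135120644 on the plus strand.
Lef1: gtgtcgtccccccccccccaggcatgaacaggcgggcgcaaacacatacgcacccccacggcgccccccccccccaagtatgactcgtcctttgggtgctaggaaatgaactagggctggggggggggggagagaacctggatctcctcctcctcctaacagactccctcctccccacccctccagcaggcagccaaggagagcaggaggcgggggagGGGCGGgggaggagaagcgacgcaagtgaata
Sox4: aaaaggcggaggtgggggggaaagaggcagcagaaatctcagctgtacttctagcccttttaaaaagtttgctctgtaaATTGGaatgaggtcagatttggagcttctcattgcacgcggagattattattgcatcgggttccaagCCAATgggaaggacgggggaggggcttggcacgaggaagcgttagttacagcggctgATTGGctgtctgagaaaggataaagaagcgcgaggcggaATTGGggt
Myb: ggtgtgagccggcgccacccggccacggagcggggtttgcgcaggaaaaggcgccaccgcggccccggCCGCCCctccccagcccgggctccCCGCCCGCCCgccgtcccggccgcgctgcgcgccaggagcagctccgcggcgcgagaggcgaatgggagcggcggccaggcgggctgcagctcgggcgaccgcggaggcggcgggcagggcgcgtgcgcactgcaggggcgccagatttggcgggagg
Runx3: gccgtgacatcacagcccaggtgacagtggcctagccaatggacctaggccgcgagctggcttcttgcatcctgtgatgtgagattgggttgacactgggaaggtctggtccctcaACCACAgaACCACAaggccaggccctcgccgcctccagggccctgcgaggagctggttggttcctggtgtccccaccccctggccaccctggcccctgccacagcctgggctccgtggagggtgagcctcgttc
Runx3 held 2 RUNX motifs here, with their first bases 134 and 126 bases before the start, and its other annotated start held none. A RUNX motif also stood in the windows of Runx2 and Meis1, 80 and 166 bases before the start. The RUNX motif was found in 14.0% of the 32851 windows of this length. Lef1 held 1 GC box, 32 bases before the start, and Myb held 3, of which 2 overlap. GC boxes stood in 32.7% of all windows and CCAAT boxes in 33.8%. Sox4 held 4 CCAAT boxes, and the Runx3 window also held 2, which are not capitalised. A STAT motif (TTCNNNGAA), a FOXO motif (GTAAACA), a TCF/LEF motif (CTTTGAA) and an ETS-IRF composite (GGAA, any pair of bases, then GAAA), each searched on both strands, were in none of the 19 windows of the 10 genes, and in 7.02%, 3.17%, 4.46% and 2.30% of all windows. A match or its absence in such a window is a description of the letters only.

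The contrast of low with high IL-7 asks which factors depend on the amount of cytokine. Lef1, Sox4, Myb, Gfi1, Runx1 and Erg rose in low IL-7, by 1.33-fold to 2.22-fold in their brightest probe sets, and Runx3 fell to 0.530 of its level in high IL-7. Changes are differences in log2(intensity + 16), tested with limma over the 27022 probe sets above a filter on dim signal (mean intensity of at least 108), and a probe set is called changed at an adjusted p under 0.05. Of the 27 probe sets of the factors, 22 passed the filter, and 15 of these were called, where 36.4% of all tested probe sets were. Of the 15, 14 rose and 1 fell, where 18.1% of all tested probe sets rose and 18.3% fell. The median change of the 22 was 0.75, against 0.03 over all tested probe sets. For 16 of the 22 the low and high IL-7 arrays had no overlap, as for 49.2% of all. The 5 probe sets below the filter, 3 of Meis1 and 2 of Sox4, were not tested.

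**Figure D1:**
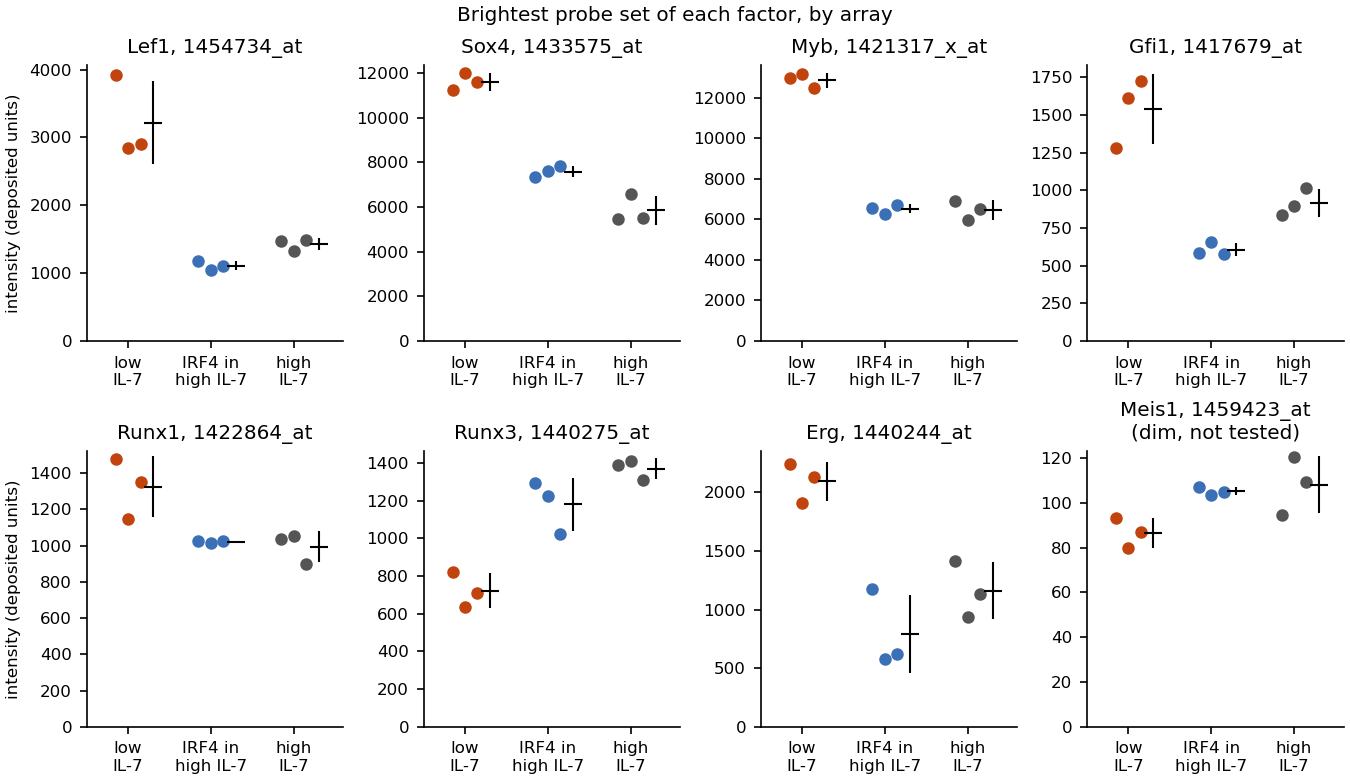
Intensity on each array (points, linear axes from 0) of the brightest probe set of each of the 8 factors in 3 groups (low IL-7, IRF4, high IL-7), with the mean and SD of the 3 arrays beside them. Myb lies between 12461 and 13167 in low IL-7, above every other array, while Runx3 lies between 637 and 820.0 there, below every other array; Meis1 was too dim to be tested.

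Of the HMG box genes, Sox4 rose in low IL-7, and Lef1 rose in 1 of its 2 probe sets. The brighter Lef1 probe set (1454734_at) read 3919, 2839 and 2896 in low IL-7 and 1178, 1044 and 1098 with IRF4, against 1466, 1321 and 1487 in high IL-7. All 3 low IL-7 arrays lay above the other 6, and all 3 IRF4 arrays lay below high IL-7. Its change was 1.15 (SE 0.12, 95% interval 0.88 to 1.43, adjusted p = 4.47e-05). The dimmer Lef1 probe set (1421299_a_at) read 1209.6, 719 and 798 in low IL-7 and 369, 339 and 482 with IRF4, against 848, 478 and 431 in high IL-7, where replicate 1 overlapped low IL-7. It changed by 0.65 (SE 0.26, adjusted p = 0.0752), which became a call once replicate numbers entered the fit as a block (adjusted p = 0.0423). Without the arrays of low 18S signal it changed by 0.94 (adjusted p = 0.00575).

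All 6 tested Sox4 probe sets rose in low IL-7, by 0.45 to 1.47. The brightest (1433575_at) read 11213, 11999.6 and 11575 in low IL-7 and 7318, 7599 and 7833 with IRF4, against 5448, 6584 and 5491 in high IL-7. The 3 groups did not overlap, with IRF4 between the others. The change in low IL-7 was 0.99 (SE 0.07, adjusted p = 3.40e-06), and the largest of the 6 was that of 1419156_at (1.47, SE 0.09, adjusted p = 1.93e-06). In 1449370_at, which rose by 0.98 (SE 0.29, adjusted p = 0.0206), the arrays read 1506, 1603 and 1540.5 in low IL-7 and 942, 830.1 and 1845 with IRF4, against 1098, 755 and 564 in high IL-7, so the arrays of low 18S signal were the highest of their groups. Without those arrays it rose by 1.23 (adjusted p = 0.000153), but its call was lost when any low IL-7 array, or replicate 3 of high IL-7, was left out (adjusted p up to 0.0815). Another Sox4 probe set (1419157_at) read 1506, 1561 and 1401 in low IL-7 and 857, 872 and 1043 with IRF4, against 689, 679 and 511 in high IL-7, with no overlap between groups. Its rise in low IL-7 was 1.24 (SE 0.13, adjusted p = 3.78e-05). The 2 untested Sox4 probe sets (1458332_x_at and 1443778_at) read between 49.3 and 82.4.

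Myb rose in low IL-7 in all 3 of its probe sets. Its leading probe set (1421317_x_at) read 12995, 13167 and 12461 in low IL-7 and 6584, 6286 and 6711 with IRF4, against 6927, 5965 and 6532 in high IL-7. Low IL-7 stood apart, while the IRF4 and high IL-7 arrays overlapped. The rise was 0.99 (SE 0.06, 1.99-fold, adjusted p = 1.21e-06), and the other probe sets rose by 0.93 (1450194_a_at, adjusted p = 0.00011) and 1.11 (1422734_a_at, adjusted p = 0.000657). The suffix of the leading probe set means that some of its probes can also match other transcripts. The suffix of the others means that they read several transcripts of the gene.

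Gfi1, the zinc finger repressor, was read by 1 probe set (1417679_at). It stood at 1279.6, 1612 and 1725 in low IL-7 and at 587, 659 and 575 with IRF4, against 833, 898 and 1014 in high IL-7. No group overlapped another. It rose by 0.73 in low IL-7 (SE 0.13, 1.66-fold, adjusted p = 0.00107).

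**Figure D2:**
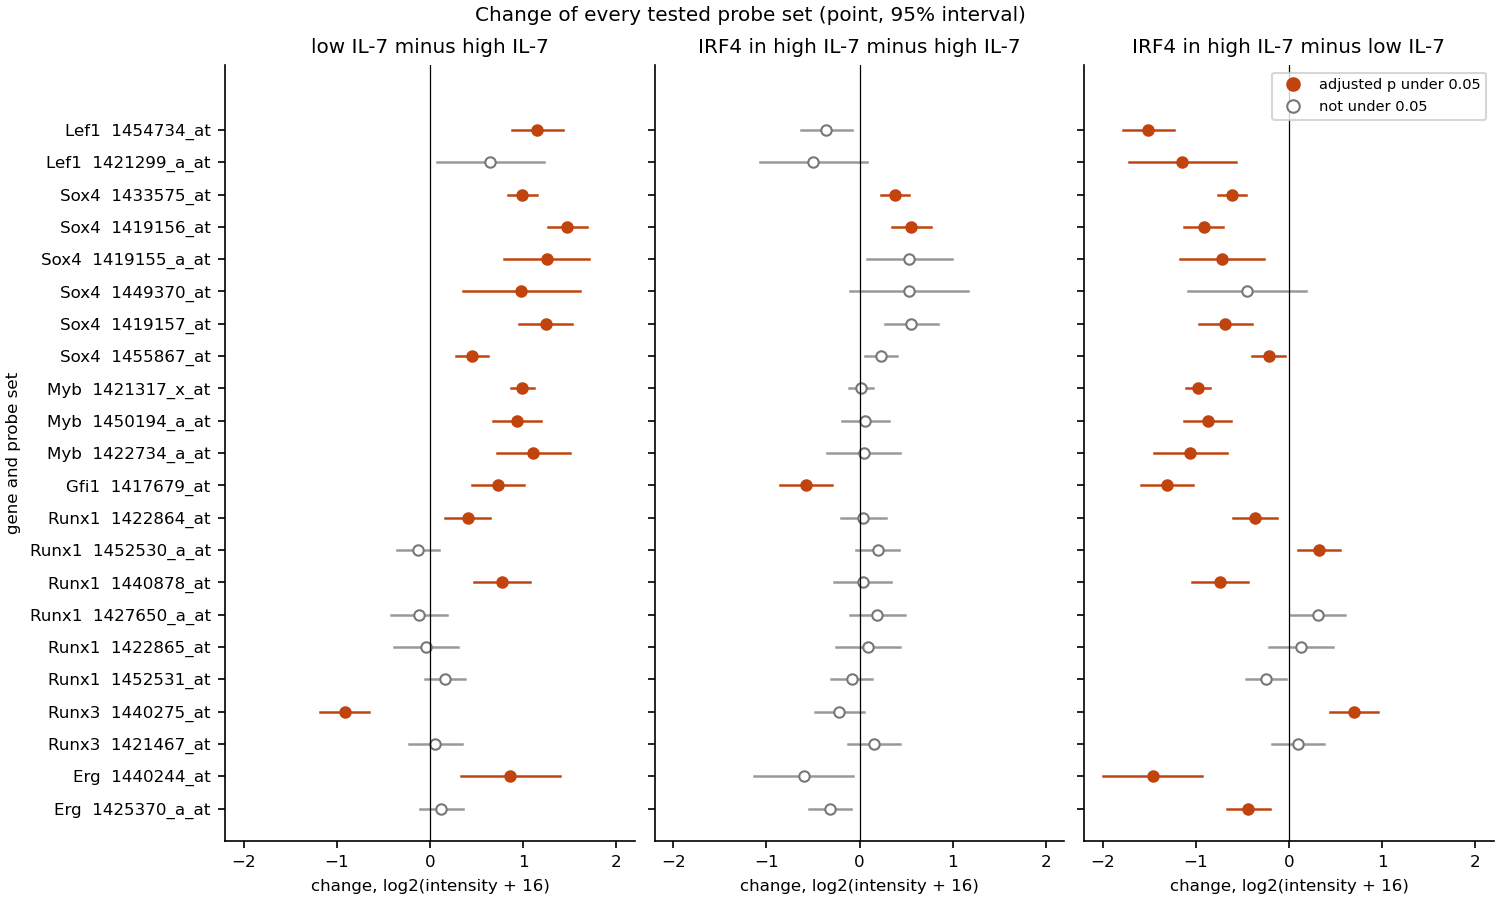
Change of each of the 22 tested probe sets (rows) in 3 comparisons on the scale of log2(intensity + 16), with 95% intervals; filled points passed an adjusted p of 0.05. In the first panel 14 points lie right of 0 and filled and 1 (Runx3) left, in the middle panel 3 are filled, and in the last 15 are filled on the left and 2 on the right.

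The RUNX genes did not all move one way, and probe sets of the same gene disagreed. Of 6 Runx1 probe sets, 2 rose in low IL-7 and 4 did not pass. The brightest (1422864_at) read 1478, 1148 and 1352 in low IL-7 and 1023, 1017 and 1023 with IRF4, against 1034, 1051 and 896 in high IL-7, and rose by 0.41 (SE 0.11, adjusted p = 0.0137). This call was lost when replicate 3 of either group was left out (adjusted p up to 0.0652). The other that rose (1440878_at) read 842, 758 and 822 in low IL-7 and 419, 580.5 and 444 with IRF4, against 398, 512 and 494 in high IL-7, with a change of 0.77 (SE 0.14, adjusted p = 0.00126). The other 4 changed by -0.13 (1452530_a_at) to 0.16 (1452531_at), with adjusted p from 0.240 to 0.860. Without both arrays of low 18S signal, 1422865_at changed by 0.12 in place of -0.04 and 1427650_a_at by 0.010 in place of -0.12 (adjusted p = 0.327 and 0.956). The files do not say which Runx1 transcript or promoter each probe set reads.

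Runx3 was the only factor with a fall in low IL-7. Its brighter probe set (1440275_at) read 820.0, 637 and 708 in low IL-7 and 1296, 1223 and 1025 with IRF4, against 1390.2, 1411 and 1309.7 in high IL-7. All low IL-7 arrays lay below the other 6. The change was -0.92 (SE 0.12, 95% interval -1.18 to -0.65, adjusted p = 0.000154). The dimmer probe set (1421467_at) ranged from 302 to 355 in low IL-7 and from 316 to 439.6 with IRF4, against 293 to 340.1 in high IL-7. It changed by 0.06 (adjusted p = 0.774), so the fall was read by 1 of 2 probe sets.

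Of the stem cell factors, Erg was measured well above the filter and Meis1 was not. The brighter Erg probe set (1440244_at) read 2243, 1914 and 2131 in low IL-7 and 1174, 577 and 618 with IRF4, against 1419, 934 and 1130.1 in high IL-7. The low IL-7 arrays were the highest, and IRF4 replicate 1 lay within the range of high IL-7. Erg rose by 0.86 (SE 0.24, adjusted p = 0.0166), a call that was lost when replicate 1 or 3 of low IL-7, or replicate 2 of high IL-7, was left out (adjusted p up to 0.0548). The dimmer Erg probe set (1425370_a_at) changed by 0.12 (adjusted p = 0.405). The 3 Meis1 probe sets (1459423_at, 1450992_a_at and 1443260_at) read between 47.9 and 120.3 over all arrays and gave no test, since whether such signals stood above background is not known.

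**Figure D3:**
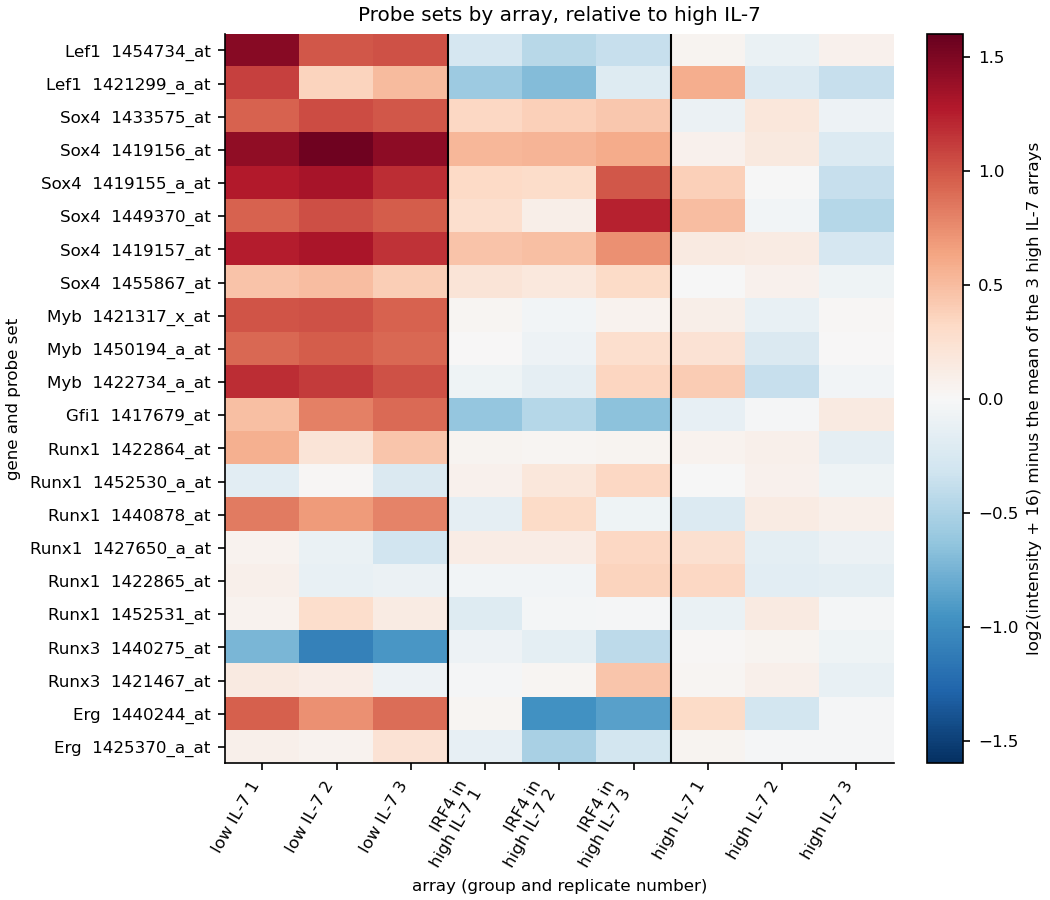
Each tested probe set (rows) on each array (columns) as log2(intensity + 16) minus the mean of the 3 high IL-7 arrays; red is higher and blue lower. The Sox4 and Myb rows are red across low IL-7, the brighter Runx3 row is blue there, and the Sox4 row of 1449370_at is red in IRF4 replicate 3 but pale in IRF4 replicates 1 and 2.

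The contrast of IRF4 with its high IL-7 controls asks what IRF4 changes while IL-7 stays high, and it uses the same 3 control arrays as the contrast of low with high IL-7. With IRF4, 2 Sox4 probe sets rose and Gfi1 fell. These are 3 of 22 probe sets called, where 2.76% of all tested probe sets were called, with 1.58% higher and 1.18% lower. The median change was 0.05, against -0.02 over all. The brightest Sox4 probe set rose by 0.38 (SE 0.07, 1.30-fold, adjusted p = 0.0177) and 1419156_at by 0.56 (SE 0.09, adjusted p = 0.0117). In 1419156_at the arrays read 2751, 2771 and 2860.15 with IRF4, against 1979, 2110.5 and 1624 in high IL-7, with no overlap. The other 4 tested Sox4 probe sets changed by 0.23 to 0.56 (adjusted p from 0.0509 to 0.423). Gfi1 fell by 0.58 (SE 0.13, adjusted p = 0.0404). The Gfi1 call was lost when any IRF4 array, or replicate 2 or 3 of low or high IL-7, was left out (adjusted p up to 0.136), and under quantile normalization of all 9 arrays (-0.54, adjusted p = 0.105).

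These 3 calls use a spread estimated over all 9 arrays, low IL-7 included. With only the 6 arrays compared, limma called 0 of 23 probe sets of the factors (7 at an unadjusted p under 0.05). None of 22 was called without high IL-7 replicate 1 and IRF4 replicate 3 together (again 7 at an unadjusted p under 0.05), where Gfi1 changed by -0.60 (adjusted p = 0.111), 1433575_at of Sox4 by 0.31 (adjusted p = 0.121) and 1419156_at by 0.57 (adjusted p = 0.056). Only 1 probe set, 1419156_at, was called without IRF4 replicate 2, IRF4 replicate 3 or high IL-7 replicate 3. The call of 1433575_at was lost each time (adjusted p up to 0.0754), and also with no variance trend in the fit (adjusted p = 0.0568). With array weights 9 were called, which were 5 of Sox4, Gfi1, the brighter Lef1 (-0.42, adjusted p = 0.00989) and both of Erg (-0.69, adjusted p = 0.0436, and -0.40, adjusted p = 0.018).

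The other factors gave no call with IRF4, with intervals that bound the change. For the leading Myb probe set the change was 0.01 (95% interval -0.11 to 0.14, adjusted p = 0.945), and for that of Runx1 it was 0.04 (-0.20 to 0.28, adjusted p = 0.907). Lef1 changed by -0.36 (-0.63 to -0.09, adjusted p = 0.184), Erg by -0.60 (-1.13 to -0.07, adjusted p = 0.263) and Runx3 by -0.22 (-0.48 to 0.05, adjusted p = 0.431). For Lef1 and Runx3 all 3 IRF4 arrays lay below high IL-7 although neither passed. The same held for the dimmer Erg probe set (1425370_a_at, -0.32, adjusted p = 0.159). Without both arrays of low 18S signal, the leading probe sets changed by 0.043 in Myb, 0.070 in Runx1, -0.31 in Erg (adjusted p = 0.715) and -0.11 in Runx3 (adjusted p = 0.799), and 1440878_at of Runx1 by -0.027 in place of 0.032. Erg passed without IRF4 replicate 1, its highest IRF4 array (-0.92, adjusted p = 0.0114). For 8 of the 22 probe sets the IRF4 and high IL-7 arrays had no overlap, as for 20.4% of all.

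IRF4 in high IL-7 was also set against low IL-7, which is the test of whether the factors differ between the conditions changed by IRF4 and by IL-7. Of the 22 probe sets, 17 were called, where 37.5% of all tested probe sets were. With IRF4, 15 were lower and 2 higher, where 20.3% of all were lower and 17.2% higher. For 19 of the 22 the IRF4 and low IL-7 arrays had no overlap, as for 49.6% of all. Since this comparison shares the low IL-7 arrays with the first, the same arrays enter both. The differences were largest in Lef1 (-1.51, SE 0.12, adjusted p = 9.80e-06), Erg (-1.46, SE 0.24, adjusted p = 0.0008) and Gfi1 (-1.31, SE 0.13, adjusted p = 2.83e-05) among the leading probe sets. Those of Myb (-0.98, adjusted p = 1.73e-06), Sox4 (-0.61, adjusted p = 7.91e-05) and Runx1 (-0.36, adjusted p = 0.0228) were also lower with IRF4, and that of Runx3 was higher (0.70, SE 0.12, adjusted p = 0.000983).

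Within Runx1 this comparison went both ways: 1422864_at and 1440878_at were lower with IRF4 (-0.36 and -0.74), while 1452530_a_at was higher (0.32, SE 0.10, adjusted p = 0.0309). The last read 966, 1044 and 1162 with IRF4, against 815, 928 and 783 in low IL-7, without overlap. Its call was lost with quantile normalization (0.29, adjusted p = 0.0658) and with only the 6 arrays compared (adjusted p = 0.0531). It was also lost when replicate 1 or 3 of low IL-7, or replicate 2 or 3 of IRF4, was left out (adjusted p up to 0.123), and without both arrays of low 18S signal (0.25, adjusted p = 0.0891). Without both, the uncalled 1422865_at changed by -0.0063 in place of 0.13, and the uncalled 1421467_at of Runx3 by -0.045 in place of 0.098. The call of 1422864_at was lost when replicate 1 or 3 of low IL-7, or 1 or 2 of IRF4, was left out (adjusted p up to 0.0785). The same call was lost with each array centred on its median (-0.30, adjusted p = 0.0688). The weakest Sox4 call (1455867_at, -0.22, adjusted p = 0.0488) was lost when any array other than IRF4 replicate 3 was left out (adjusted p up to 0.152), with each array centred on its median (-0.15, adjusted p = 0.154), with quantile normalization (-0.14, adjusted p = 0.166) and with either other filter (adjusted p = 0.0823 and 0.0595). In 1449370_at the difference was -0.45 (adjusted p = 0.250), and it passed without IRF4 replicate 3 (-0.80, adjusted p = 0.0217) and without both arrays of low 18S signal (-0.80, adjusted p = 0.00162). That of 1419155_a_at (-0.72) was lost when replicate 1 or 2 of low IL-7 or of IRF4 was left out (adjusted p up to 0.0691). With each array centred on its median, 56.1% of all called probe sets were higher with IRF4, against 46.0% as deposited, and 13 probe sets of the factors were lower and 2 higher.

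Partners and related genes were read from lists, each gene by its brightest probe set. With 1 such probe set per gene, 37.4% of all genes tested were called in low against high IL-7 and 2.85% with IRF4 against high IL-7. Of 8 tested partners and paralogs of RUNX and MYB, 6 rose and 2 fell in low IL-7 (median 0.41, against 0.03 over all tested probe sets). Cbfb, the shared partner of the RUNX proteins, rose by 0.46 (adjusted p = 3.10e-05), Cbfa2t3, a corepressor, by 0.98 (adjusted p = 2.50e-05), Ep300, a coactivator that MYB binds, by 0.65 (adjusted p = 0.000198) and Kmt2a, a histone methyltransferase, by 0.82 (adjusted p = 0.000562). The 2 that fell were Mybl2, a MYB paralog (-0.89, adjusted p = 0.0176), and Men1, a KMT2A partner (-0.58, adjusted p = 0.00665). With IRF4, Cbfa2t3 also rose (0.52, adjusted p = 0.0189) and the other 7 did not pass.

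Of 18 tested partners of LEF and TCF and genes of the Wnt pathway, 4 rose and 2 fell in low IL-7 (median 0.14), and none passed with IRF4. These 6 of 18 stand beside 37.4% of all genes. Tcf7l2, another TCF factor, rose by 1.32 (SE 0.26, adjusted p = 0.00226), Tle4, a corepressor, rose by 0.47 (adjusted p = 0.0097), and Tle1, its paralog, changed by -1.02 (SE 0.09, adjusted p = 1.26e-05). Ctnnb1, which encodes beta-catenin, lay between 5179 and 7825 and changed by 0.06 (adjusted p = 0.791). Of 8 SOX4 and GFI1 paralogs and corepressors, Gfi1b, the close paralog of Gfi1, rose by 0.78 (adjusted p = 0.0133) and Hdac2, a histone deacetylase, fell by 0.29 (adjusted p = 0.0331), with a median of -0.04. Of 9 tested partners of MEIS and ERG, 2 rose and 2 fell (median -0.06). Fli1, an ETS factor close to ERG, rose by 0.35 (adjusted p = 0.0112) and Pknox1, a MEIS relative, by 0.28 (adjusted p = 0.0159). Hoxa5 fell by 0.32 (adjusted p = 0.0154) and Meis2 by 1.23 (adjusted p = 0.0403). Meis2 ranged from 50.1 to 271.

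Of 9 other haematopoietic progenitor factors, Hhex, a homeobox factor, rose in low IL-7 (0.35, adjusted p = 0.0175) and none fell (median -0.07). With IRF4 the 1 that passed was Lmo2, a LIM domain partner of TAL1, which rose by 1.45 (SE 0.14, adjusted p = 0.000368). Of 4 tested progenitor receptors and surface proteins 3 rose in low IL-7 (median 1.44): Cd93 by 2.52 (adjusted p = 7.96e-07), Kit, the receptor for stem cell factor, by 1.89 (adjusted p = 0.001) and Crlf2, a receptor for TSLP, by 0.99 (adjusted p = 0.000308). Kit ranged from 51.9 to 614 and passed the filter on dim signal only through its low IL-7 arrays. Cd93 also rose with IRF4 (1.70, adjusted p = 7.75e-05). Of 13 genes known to be controlled by the factors in lymphoid precursors, 8 rose and none fell in low IL-7 (median 0.38), among them Ebf1, a target of RUNX1 (0.67, adjusted p = 1.36e-05). Rag1 and Rag2, which encode the recombinase, rose by 4.67 (adjusted p = 7.96e-07) and 3.37 (adjusted p = 1.99e-07). Il7r, which MYB raises and GFI1 represses, rose by 2.83 (adjusted p = 3.10e-07) while both Myb and Gfi1 rose. Id2, which GFI1 represses, rose by 1.44 (adjusted p = 0.000999) beside Gfi1. With IRF4, Rag1 alone of the 13 passed (1.42, adjusted p = 0.0146). All medians with IRF4 lay between -0.02 and 0.15.

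**Figure D4:**
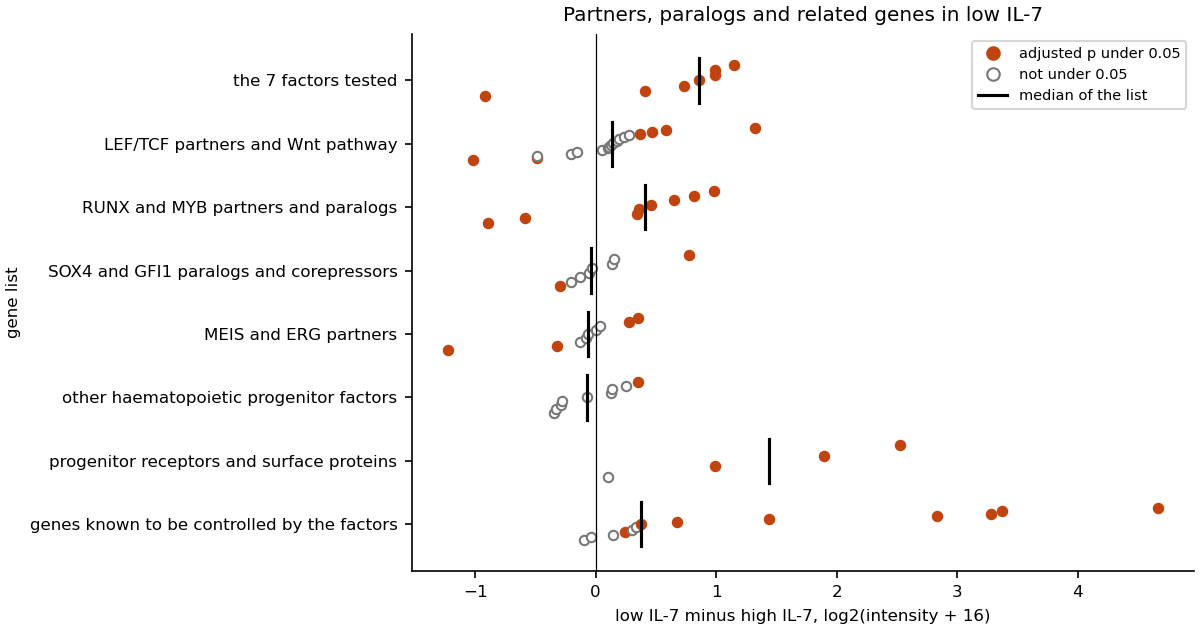
Change in low IL-7 against high IL-7 (log2 scale) of the leading probe set of the 7 tested factors and of the genes of 7 lists (rows, 1 point per gene), with the median of each row as a bar; filled points passed an adjusted p of 0.05. The factors have a median of 0.86, while the lists of progenitor factors, MEIS and ERG partners, and SOX4 and GFI1 paralogs have medians between -0.07 and -0.04.

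The genes whose log2 values followed each factor most closely over the 9 arrays were found by Pearson's r over 22713 probe sets of other named genes. The arrays fall into 3 conditions, so r describes a shared pattern over these conditions and has no test. These genes were picked for following a factor over the same arrays, so their changes given below are not separate results. Lef1 was followed by Ankrd33b (r = 0.997), Tnfrsf19 (0.994) and Cers5 (0.990), which were higher in low IL-7 and, in these data, lower with IRF4 than in high IL-7, though of the 3 only Tnfrsf19 passed for the IRF4 contrast (-0.63, adjusted p = 0.0165). Sox4 was followed by Dpp4 (0.995), Acad11 (0.993) and Plekha2 (0.992), of which Plekha2 (0.38, adjusted p = 0.00391) and Acad11 (0.37, adjusted p = 0.046) rose with IRF4. Myb was followed by Nfkbia (0.996), Fam43a (0.994) and Maml1 (0.993), and none of these 3 passed with IRF4. Gfi1 was followed by Rpp30 (0.983), Ogt (0.979) and Prss23 (0.978), and Ogt (-0.37, adjusted p = 0.0172) and Prss23 (-0.30, adjusted p = 0.037) fell with IRF4. Runx1 was followed by Slx4ip (0.974), Sfmbt1 (0.974) and Arpc5l (0.972). Runx3 was followed by Pex10 (0.994), Xpot (0.993) and Fkbp3 (0.993), all of which fell in low IL-7. Erg was followed by Tm6sf1 (0.986), Tcf7l2 (0.984) and Vpreb1 (0.983).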

How the data were processed

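Per the labels' protocols, biotin-labelled total RNA was hybridised to Affymetrix mouse arrays. The authors deposited 1 table of linear intensity values for 45101 probe sets and 9 arrays, and no column was left out. Summarisation, scaling and software are not given in the sources used here. Array medians spanned 0.11 on the log2 scale, under the limit of 0.2 set for normalizing, so the values were kept as deposited. Replicates correlated with r from 0.978 to 0.995. Groups came from the sample titles.

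Values were taken as log2(intensity + 16), which understates changes of dim probe sets. The 64 control probe sets were left out, and 27022 probe sets with a mean at or above the 40th percentile (108) were fitted. limma 3.58.1 in R 4.3.3 fitted group means over all 9 arrays with a variance trend, and p-values were Benjamini-Hochberg adjusted over all of them in each of 3 comparisons. The procedure was tested on simulated data with noise that was independent between arrays, so effects shared between arrays were not covered. The recovery required there concerned only changes larger than any of the factors' own. Symbols came from the platform annotation, in which 34945 probe sets have 1 symbol and 932 have several, which were not used. Promoter windows came from RefSeq (GRCm38.p6), which held all 10 genes. Plots used matplotlib 3.10.9 (Python 3.11.15).

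All probe sets of the factors are described, with up to 4 called genes of smallest p per list and comparison (1 of the Wnt list is not reported here), and the 3 genes most correlated with each called factor. A few genes beyond this rule were named after their values were seen: Ctnnb1, Mybl2, Men1, Vpreb1, Pax5, Thy1, Cd3g, Itgam and Kdr. Alternatives were other pseudocounts and filters, quantile normalization, median centring, array weights, no variance trend, a replicate block, the 6 arrays compared, 1 probe set per gene and arrays left out. Members and lists were chosen with earlier results of these data known. Deviations of same-numbered low and high IL-7 arrays from their group means correlated at 0.53, 0.35 and 0.19. Those of different numbers correlated at -0.51 to 0.36. In the other comparisons same-numbered arrays correlated at -0.35 to 0.01. The labels state no pairing, so whether the replicate numbers mark one is not known.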

Additional observations from a re-analysis of the deposited data

How the results depend on the processing

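Over 22 alternatives, none of the 35 called changes of a probe set changed sign. Low against high IL-7 gave 12 to 16 called probe sets of the factors with 1 array left out (15 with all), IRF4 in high IL-7 against high IL-7 gave 1 to 3 (3 with all), and IRF4 against low IL-7 gave 13 to 17 (17 with all). With 1 probe set per gene, 7 of 7 were called in the first (37.4% of all), 2 of 7 in IRF4 against high IL-7 (2.85% of all) and 7 of 7 in the last (36.4% of all), since fewer were tested. In IRF4 against high IL-7, array weights gave 9 calls, while the 6 arrays compared gave 0, as did a replicate block within them, chosen after seeing the data, and leaving out high IL-7 replicate 1 and IRF4 replicate 3 together, also chosen so (7 at an unadjusted p under 0.05 each). Over all probe sets, this comparison gave 745 calls, 3248 with array weights, 331 with the 6 arrays, 211 with the block within them, 400 without both arrays of low 18S signal, and 334 to 1041 with 1 array left out. Array weights gave 15307 in low against high IL-7 (9827 without) and 15219 in IRF4 against low IL-7 (10133 without). With 1 probe set per gene, 4801, 365 and 4666 were called, of fewer tested. With the replicate block over all 9 arrays, 16, 3 and 17 probe sets were called. In the last of these the block lost Sox4 1455867_at (adjusted p = 0.0621) and gained Runx1 1452531_at (-0.25, adjusted p = 0.0327). The cause of these shifts was not tested.

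Changes that turned sign were all uncalled, with ranges over the arrays left out in turn. In low against high IL-7, Runx3 1421467_at ranged from -0.0032 (without high IL-7 replicate 3) to 0.12. Runx1 1422865_at ranged from -0.13 to 0.12 (without high IL-7 replicate 1, and likewise without both arrays of low 18S signal) and was 0.043 with array weights. Runx1 1427650_a_at ranged from -0.20 to 0.010, this highest value also without both. In IRF4 against high IL-7, Myb 1421317_x_at ranged from -0.044 to 0.064 (-0.012 with array weights), 1422734_a_at from -0.14 to 0.25 (-0.011) and 1450194_a_at from -0.058 to 0.18 (-0.0096). Runx1 1422864_at ranged from -0.030 to 0.084, 1422865_at from -0.049 to 0.25 and 1440878_at from -0.11 to 0.12 (-0.027 without both arrays of low 18S signal). In IRF4 against low IL-7, Runx3 1421467_at ranged from -0.045 to 0.18 and Runx1 1422865_at from -0.0063 to 0.20, each lowest without IRF4 replicate 3 and the same without both. No detection values were used here, so whether the dim Meis1 probe sets stood above background is not known.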
